A study of Mus musculus with 6 samples.

Results

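Of the 6 brain libraries of the study, 2 have names that begin with N22, and these 2 were compared with the other 4. The N22 libraries are wild type replicate 3 (N22.L1.1.WT) and Top2b-low replicate 3 (N22.R1.2.dNdN), so that each genotype holds 1 of them. The other libraries are wild type replicates 1 and 2 (X392.WT and X385.WT) and Top2b-low replicates 1 and 2 (X390.Homo and NT.Homo). All were made from polyadenylated RNA of the left brain of untreated male mice, for which the labels give an age of 10 weeks and the series text 3.5 months. For wild-type mice the labels give the genotype WT and nothing more. Top2b-low mice were homozygous for a CRISPR/Cas9 allele that puts an auxin-inducible degron, a tag for auxin-dependent protein breakdown, in front of the coding sequence of Top2b, the topoisomerase IIβ gene. The labels do not say what N22, L1, R1, NT or dNdN stand for, nor how the N22 mice or dissections differed from the rest. Replicates were taken to be separate mice from the number of mice in the series text.

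Different parts of the brain carry different sets of neurons, and many transcription factors, transmitter enzymes and peptides are made in 1 region and nearly nowhere else. Hox genes mark the hindbrain and spinal cord, glycine transporter neurons the hindbrain, noradrenaline and serotonin neurons the brainstem, and dopamine neurons the ventral midbrain. Granule and Purkinje cells belong to the cerebellum, peptide neurons such as those for vasopressin and orexin to the hypothalamus, and Emx1 and Fezf2 to the telencephalon. Their RNA is therefore commonly read as a marker of the region.

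The labels describe whole left brain in all 6 libraries, but defining cerebellar genes were nearly absent from both N22 libraries. Values are normalised counts, given for wild type replicates 1 and 2 and Top2b-low replicates 1 and 2 in that order, then for the wild-type and the Top2b-low N22 library. Gabra6, a GABA receptor subunit of granule cells, counted 2348, 2020.3, 2073 and 2033 in the other libraries and 0.711 and 0.592 in the N22 libraries, where each value is a single read. The N22 level was 0.0305% of the level in the other libraries, with an exact 95% interval of 0.00369% to 0.1101% that covers counting error only. The granule cell cadherin Fat2 counted 3115, 2692, 3193 and 3496 in the other libraries and 6.40 and 3.55 in the N22 libraries, which left 0.155% (0.0867% to 0.256%). Cbln3, a secreted synaptic organiser of granule cells, counted 6504, 4615, 5539.9 and 6354 in the other libraries and 17.8 and 9.47 in the N22 libraries, which left 0.230% (0.165% to 0.312%). In these 3 granule cell genes both N22 libraries lay far below each of the others. The Purkinje cell gene Pcp2 counted 1029, 722, 809.7 and 968 in the other libraries and 8.53 and 9.47 in the N22 libraries, which left 1.02% (0.679% to 1.48%). En2, a homeobox gene of the midbrain and cerebellum, counted 646, 564, 583 and 586 in the other libraries and 30.6 and 29.6 in the N22 libraries, which left 5.05% (4.05% to 6.21%). Slc6a5, which takes up glycine into inhibitory neurons of the hindbrain, counted 855, 1018, 587 and 422 in the other libraries and 42.0 and 14.8 in the N22 libraries, which left 3.78% (3.00% to 4.69%). For none of the 6 markers did the N22 libraries overlap the others. These 6 were given as markers of these libraries beforehand, so their separation is a description and no independent support. The share of all genes without overlap is not given here. In bulk tissue, fewer cells of a type and less RNA per cell cannot be told apart.

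**Figure D1:**
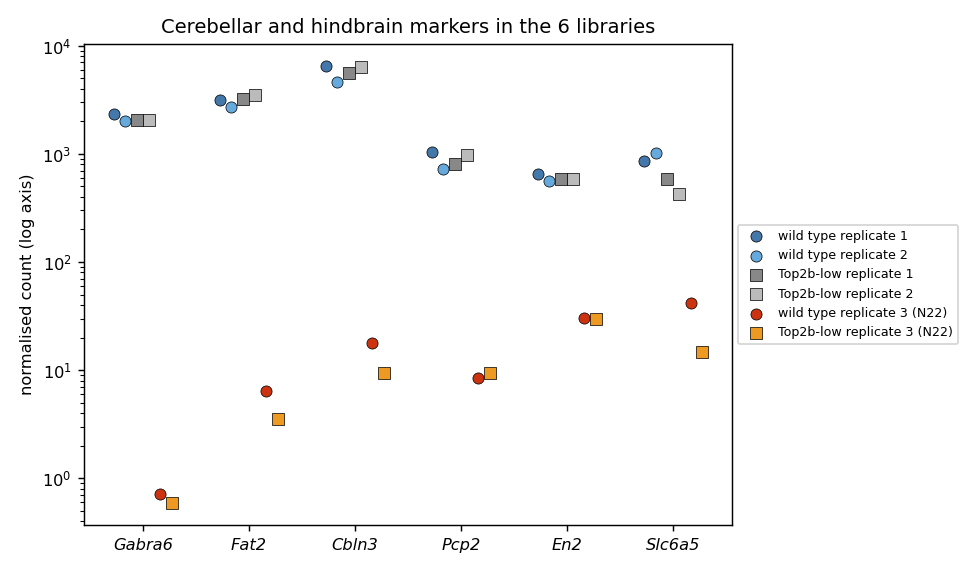
Normalised count (log axis) of 6 marker genes in each of the 6 libraries, 1 point per library; circles are wild type, squares Top2b-low, red and orange the N22 libraries. For each gene the 2 N22 points lie below the 4 others, by most for Gabra6 (0.711 and 0.592 against 2020.3 to 2348).

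The start sites of the 3 granule cell genes with the largest differences are shown because these genes moved together. The windows hold 250 bases before and 50 after the annotated start and come from RefSeq on the GRCm38.p6 build, whereas the deposited table was made on mm39. They lie on the minus strand at chr11:42321023-42321322 for Gabra6, chr11:55312208-55312507 for Fat2 and chr14:55884207-55884506 for Cbln3. Capitals mark TTGGC or its reverse complement GCCAA, searched on both strands, the half-site of nuclear factor I, a transcription factor family of maturing granule cells.
Gabra6: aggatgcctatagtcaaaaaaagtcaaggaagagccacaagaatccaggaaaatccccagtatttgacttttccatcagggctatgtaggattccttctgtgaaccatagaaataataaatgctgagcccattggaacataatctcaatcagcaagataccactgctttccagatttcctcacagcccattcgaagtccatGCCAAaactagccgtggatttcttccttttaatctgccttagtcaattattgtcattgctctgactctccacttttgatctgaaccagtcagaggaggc
Fat2: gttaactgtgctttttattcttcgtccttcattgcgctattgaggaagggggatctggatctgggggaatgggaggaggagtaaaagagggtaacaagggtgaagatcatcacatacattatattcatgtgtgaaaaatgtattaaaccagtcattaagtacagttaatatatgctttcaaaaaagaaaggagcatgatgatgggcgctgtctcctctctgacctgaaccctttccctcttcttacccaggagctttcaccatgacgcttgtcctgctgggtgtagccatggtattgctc
Cbln3: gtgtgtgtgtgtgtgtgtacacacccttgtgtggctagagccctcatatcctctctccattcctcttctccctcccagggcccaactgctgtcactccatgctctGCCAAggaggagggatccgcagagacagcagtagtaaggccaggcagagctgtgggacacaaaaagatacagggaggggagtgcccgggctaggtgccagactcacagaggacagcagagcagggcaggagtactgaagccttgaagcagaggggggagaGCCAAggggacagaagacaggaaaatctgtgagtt
Matches numbered 1 in the Gabra6 window and 2 in the Cbln3 window, and these letters were not found in the Fat2 window. Of all 32851 promoter windows in the table, 46.7% held at least 1 match, so the matches are a description of the letters only.

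Facts of the libraries move with the same split. The N22 libraries were the deepest, with 28629911 and 35246703 reads recovered from the normalised counts against 16963067 to 17413959 in the others. Top2b, the targeted gene, counted 3160.4, 3014, 2152 and 2314 in the other libraries and 2485 and 1965 in the N22 libraries, and within each kind of library the Top2b-low values were the lower. It was −0.25 log2 units from the other libraries in N22 (SE 0.06, adjusted p = 0.0161), but 0.02 (adjusted p = 0.813) after a normalization for transcript length and GC content that was added after seeing the data. The N22 difference of all genes followed the length of the longest annotated transcript. Among genes of 500 to 1000 bases 30.7% were called higher and 2.44% lower in N22, and among genes over 8000 bases 2.92% were called higher and 48.5% lower. The median difference went from 0.45 log2 units in genes up to 500 bases to −0.22 in genes over 8000 bases. Whether RNA integrity, library preparation or tissue gives this trend was not tested.

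**Figure D2:**
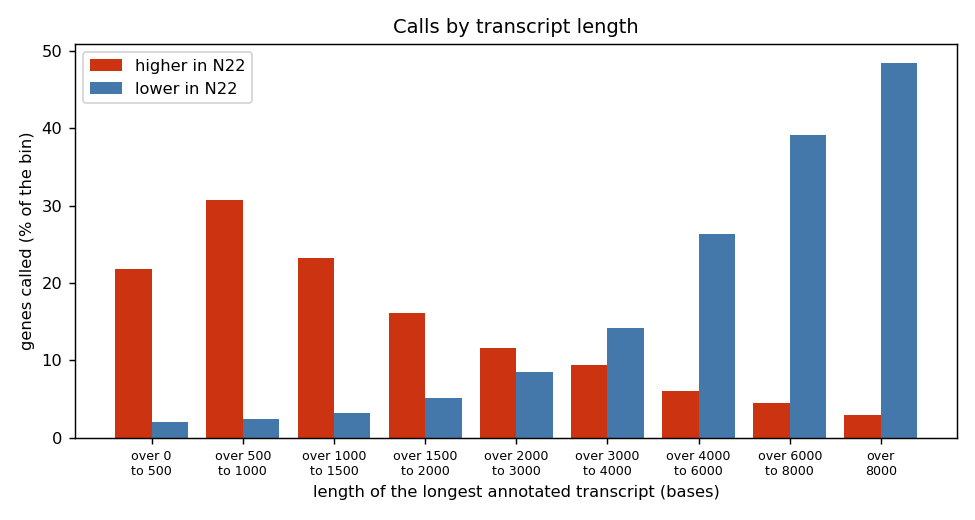
Share of tested genes called higher (red) or lower (blue) in the N22 libraries, in percent of each bin of transcript length in bases. The share called higher falls from 30.7% at 500 to 1000 bases to 2.92% over 8000 bases, and the share called lower rises from 1.99% in the shortest bin to 48.5%.

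Of 17391 genes with a mean of at least 10 normalised counts, 1963 were higher in the N22 libraries (11.3% of genes tested) and 2901 were lower (16.7%). The test was limma's on log2(normalised count + 1) with genotype as a term and a Benjamini-Hochberg adjusted p under 0.05. With quantile normalization the split turned to 2438 higher and 2377 lower, and with length and GC normalization it was 1869 and 2045 of 16515 genes. At least 2-fold, 333 genes were lower and 252 higher, and at least 4-fold 110 were lower and 81 higher. Among protein-coding genes 269 were at least 2-fold lower and 60 at least 2-fold higher. The result rests on 2 libraries. Without wild type replicate 3 the counts were 678 higher and 1267 lower, and without Top2b-low replicate 3 they were 376 and 1335. An exact permutation test of 2 libraries against 4 has 15 assignments, and with the smaller tail doubled its two-sided p cannot go below 0.133. The median difference over all genes was −0.0046 log2 units. The shares of 11.3% and 16.7% are the ones to set beside each count of list members called.

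The lower side was led by genes of the cerebellum and hindbrain. The 15 genes with the largest differences among well-measured genes were Gabra6, Fat2, Cbln3, Cnpy1, Pcp2, Ppp1r17, Car8, Slc6a5, Arhgef33, En2, Neurod1, Alas2, Atp2a3, Il16 and Cbln1. Car8, a Purkinje cell protein that binds the IP3 receptor, counted 7269, 5514, 5934 and 6972 in the other libraries and 213 and 227 in the N22 libraries. Cnpy1, which acts in fibroblast growth factor signalling at the midbrain-hindbrain border, counted 1769.7, 1224, 1728 and 1769 in the other libraries and 12.1 and 10.1 in the N22 libraries. The choice of the 15 required both N22 libraries to lie below all others, and in Car8 and Cnpy1 they lay far below. Il16, a cytokine precursor with a neuronal form, counted 921, 837, 888 and 1002 in the other libraries and 118 and 137 in the N22 libraries. Alas2, the haem synthesis enzyme of red blood cells, was the 1 gene of the 15 that belongs to blood, and it is described with the globins. It was also the 1 of the 15 not called without Top2b-low replicate 3 (adjusted p = 0.104).

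Among genes with an official symbol at or above the median level, the higher side was led mostly by genes of ribosomal and mitochondrial proteins. The 15 leading genes were mt-Atp6, Nme7, Rps29, Atp5k, Rps28, Rpl38, Rps21, Npy, Rgs11, Rpl41, Ndufa3, Ndufb1-ps, Romo1, Uqcr11 and Tmem191c. Larger differences lay outside this choice. The pseudogene Gm29216 was 2.97 log2 units higher, with 560, 452, 972 and 371 in the other libraries and 5191 and 3570 in the N22 libraries. Gpr39, below the median level, was 2.11 higher. Of 252 genes at least 2-fold higher, 60 were protein-coding. Rps29, a small ribosomal subunit protein, counted 1263, 1177, 1341 and 834 in the other libraries and 1951 and 4179.8 in the N22 libraries, and the difference of 1.33 was larger in the Top2b-low pair (1.98) than in the wild-type pair (0.68). Nme7, a centrosomal kinase-family protein, counted 251, 297, 268 and 314 in the other libraries and 538 and 1064 in the N22 libraries. Npy, the neuropeptide Y gene of forebrain interneurons, counted 548, 447, 527 and 489 in the other libraries and 858 and 1067 in the N22 libraries. Rgs11, a regulator of G-protein signalling, counted 357, 313, 379 and 345 in the other libraries and 693 and 621 in the N22 libraries. In these genes both N22 libraries were above all others, which the choice of the 15 required. The higher side leaned on 1 library, since 7 of the 15 leading genes were called without Top2b-low replicate 3. The 8 not called were Rps29 (adjusted p = 0.0863), Rps28, Rps21, Atp5k, Ndufa3, Ndufb1-ps, Romo1 and Uqcr11. Without wild type replicate 3 all 15 were called, and after length and GC normalization 13 were, Ndufa3 and Ndufb1-ps being the exceptions.

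Protein families of the higher side, chosen after the values were seen, were ribosomal and respiratory. Of 80 cytoplasmic ribosomal protein genes 61 were higher and 0 lower, with a median difference of 0.35 log2 units and a median transcript length of 1100 bases. Of 93 nuclear-encoded genes of the respiratory chain and ATP synthase 61 were higher and 0 lower, with a median of 0.35. After the length and GC normalization these counts were 26 higher and 3 lower for the ribosomal proteins (median 0.12), and 26 higher and 1 lower for the respiratory genes (median 0.10). For comparison, 11.3% of all genes were called higher, and before the normalization 30.7% of genes of 500 to 1000 bases and 23.2% of genes of 1000 to 1500 bases were.

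Genes of the hindbrain were lower in both N22 libraries, down to no reads at all. Of 11 listed genes of hindbrain neurons 8 were tested and 7 were lower, with a median of −3.45 log2 units, against 16.7% of all genes called lower. Lbx1, Tlx3 and Pax2 passed the filter through the other libraries. Only 3 of the 8 are listed for no other region, and these 3 were lower (median −4.71). Lbx1, a homeobox gene of dorsal hindbrain and spinal interneurons, counted 53.4, 46.4, 41.8 and 40.1 in the other libraries and 0 and 0.592 in the N22 libraries, where the N22 level of 1 read is 0.711% of the others (exact 95% interval 0.0179% to 4.02%). Tlx3, a homeobox gene of excitatory hindbrain neurons, counted 37.7, 23.8, 43.1 and 26.7 in the other libraries and 0 and 0 in the N22 libraries, at least 33.9-fold lower when 3 reads over both N22 libraries are taken as the limit. Glra1, the glycine receptor subunit, was retained at a higher share, with 295, 315, 213 and 135 in the other libraries and 105 and 82.2 in the N22 libraries, a difference of −1.28 (SE 0.19, adjusted p = 0.00103). Pax2, a factor of inhibitory interneurons in the hindbrain and cerebellum, counted 76.5, 37.6, 61.5 and 53.4 in the other libraries and 2.13 and 3.55 in the N22 libraries.

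Hox genes had few reads outside N22 and almost none in it. Paralogues 4 and 5, which mark the caudal hindbrain, summed to 99, 156, 52 and 51 reads in the other libraries and to 0 and 0 in the N22 libraries, at least 114-fold lower as normalised counts. Paralogues 1 to 3 summed to 72, 72, 36 and 26 reads outside N22 and to 2 and 1 in it. Paralogues 6 to 8 summed to 13, 64, 6 and 8 reads against 0 and 5, so that neither N22 library reached the others, at few reads in all but wild type replicate 2. Paralogues 9 to 13, which mark the thoracic and lumbar cord, summed to 0, 0, 2 and 0 reads against 0 and 0, which is no difference at this depth. The deepest 2 libraries of the study thus held the fewest Hox reads. Of 39 Hox genes 5 passed the filter, which they did through the other libraries, and all 5 were lower, against 16.7% of all genes. Their median was −4.44, or −4.56 with each at its 3-read limit.

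RNA of brainstem monoamine neuron genes was lower in N22, nearly gone for the noradrenergic Slc6a2 and retained in part for Dbh and the serotonergic genes. Of the noradrenergic list 2 genes were tested and both were lower, against 16.7% of all genes. Slc6a2, the noradrenaline transporter, counted 88.7, 61.4, 97.2 and 87.4 in the other libraries and 0.711 and 0 in the N22 libraries, and its 1 N22 read is 0.385% of the others (exact 95% interval 0.00972% to 2.17%). Dbh, which makes noradrenaline from dopamine, counted 48.6, 47.6, 49.2 and 54.6 in the other libraries and 3.56 and 10.6 in the N22 libraries. Slc6a4, the serotonin transporter, counted 155, 43.9, 61.5 and 114 in the other libraries and 16.4 and 1.77 in the N22 libraries, a difference of −3.60 (SE 0.61, adjusted p = 0.0023). Slc6a2, Dbh and Slc6a4 passed the filter through the other libraries. Tph2, the serotonin synthesis enzyme of neurons, counted 256, 53.9, 109.5 and 169 in the other libraries and 41.2 and 13.6 in the N22 libraries, a difference of −2.36 (SE 0.54, adjusted p = 0.0103). Both serotonergic genes were lowest in Top2b-low replicate 3, and they also varied among the other libraries, with wild type replicate 2 the lowest of the 4. All 4 tested serotonergic list genes were lower with both N22 libraries, 3 without wild type replicate 3 and 0 without Top2b-low replicate 3. The serotonergic median was −1.20 in the wild-type pair and −2.64 in the Top2b-low pair, a difference that was tested gene by gene only and did not pass for these genes.

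The Iroquois factors, homeobox genes that pattern the midbrain and hindbrain, were lower to a smaller degree. All 4 tested members were called, with a median of −1.08, and 3 without wild type replicate 3 and 2 without Top2b-low replicate 3. Among all genes 16.7% were called lower. Irx3 counted 87.5, 76.5, 65.2 and 97.1 in the other libraries and 30.6 and 30.2 in the N22 libraries. Irx2 counted 152, 144, 84.9 and 98.3 in the other libraries and 55.5 and 45.6 in the N22 libraries. Neither overlapped between the groups. Of 4 tested cranial motor neuron genes 1 was lower, which for so short a list is near the 16.7% of all genes. It was Nefh, the heavy neurofilament of large projection neurons in many regions. Nefh counted 3900.1, 4018, 3266 and 3098 in the other libraries and 1898 and 1717 in the N22 libraries. Prph, the peripherin of motor neurons, counted 60.7, 68.9, 51.7 and 49.8 in the other libraries and 56.9 and 27.8 in the N22 libraries and did not pass (adjusted p = 0.104).

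The cerebellar lists were lower in nearly all members. All 14 granule cell genes were lower (median −2.14) and 13 of 14 Purkinje cell genes were (median −2.13), against 16.7% of all genes. Among them Gabra6, Fat2, Pcp2 and the Purkinje cell gene Skor2 had N22 means under 10 and passed the filter through the other libraries. The 7 granule cell and 10 Purkinje cell genes that no other region is listed for had medians of −4.26 and −3.31. Ppp1r17, a phosphatase inhibitor of Purkinje cells, counted 876, 640.4, 708 and 754 in the other libraries and 25.6 and 1.77 in the N22 libraries. Neurod1, shared with the dentate gyrus, counted 2066, 1672, 2061 and 1850.1 in the other libraries and 177 and 246 in the N22 libraries. Gabrd, the GABA receptor delta subunit shared with the thalamus and dentate gyrus, had the smallest granule cell difference, −0.31, with 1448, 1386, 1382 and 1588 in the other libraries and 1117 and 1215 in the N22 libraries. Calb1, the calcium buffer of Purkinje cells that cortex, striatum and hippocampus also make, counted 6188, 5441, 5835 and 5753 in the other libraries and 2852 and 2809.6 in the N22 libraries. Gng13, a G-protein gamma subunit also of the olfactory system, was the Purkinje cell gene that did not pass, with 402, 325, 399 and 305 in the other libraries and 242 and 362 in the N22 libraries.

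Markers of other cerebellar cells were lower as well. Gdf10, a growth factor of Bergmann glia, counted 594, 510.1, 484 and 612 in the other libraries and 102 and 100.6 in the N22 libraries, a difference of −2.42 (SE 0.12, adjusted p = 8.01e-07). All 3 Bergmann glia genes were lower, against 16.7% of all genes. Eomes, listed for the olfactory bulb and shared with the unipolar brush cells of the cerebellum, counted 192, 208, 194 and 181 in the other libraries and 22.05 and 10.6 in the N22 libraries, and it was the 1 olfactory bulb gene of 8 tested that was called. Pvalb, the calcium buffer of fast-spiking interneurons and Purkinje cells, counted 2422, 1811, 2236 and 1845 in the other libraries and 805 and 919 in the N22 libraries. Reln, the secreted reelin protein of cortical interneurons and granule cells, counted 3005, 3189.6, 3391 and 3442 in the other libraries and 1929 and 1951 in the N22 libraries. Etv1, a factor of cortical layer 5 and granule cells, counted 4302, 3959, 3710.1 and 4193 in the other libraries and 2146 and 2409.7 in the N22 libraries. Some list members were noted by hand as shared with another region. Without them, 0 of 12 interneuron genes and 0 of 6 olfactory bulb genes were lower, and 1 of 10 genes of layers 5 and 6 was. The lists were made with earlier results of these data known, so these counts are no independent support.

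**Figure D3:**
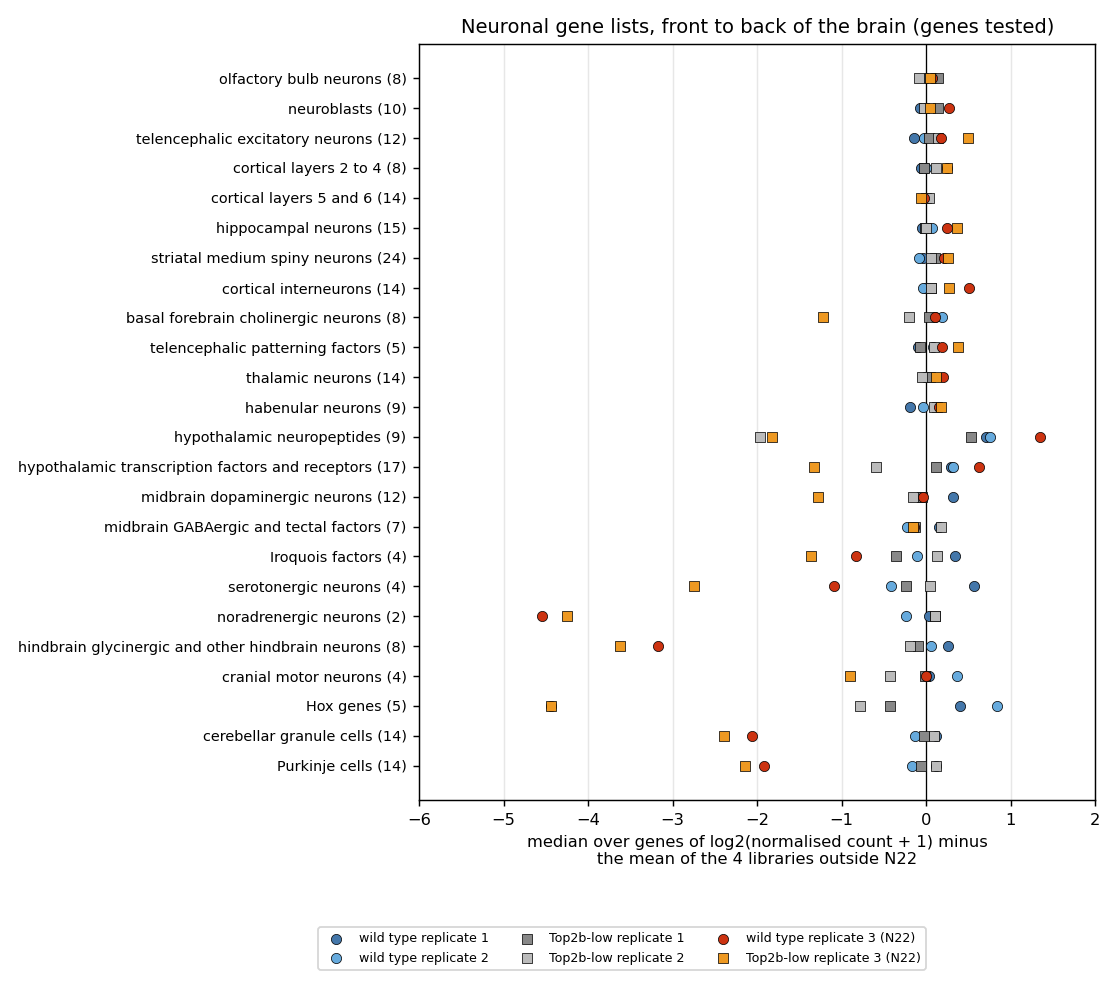
Median difference of each neuronal gene list from the mean of the 4 libraries outside N22, in log2 units, 1 point per library, with lists ordered from the front to the back of the brain and the number of tested genes in parentheses. The N22 points lie left of the others for the cerebellar, hindbrain, noradrenergic, serotonergic and Iroquois lists, at or right of them for most telencephalic lists other than layers 5 and 6, and far apart from each other for the hypothalamic, dopaminergic and basal forebrain lists; at the Hox list both N22 points coincide.

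Dopamine neuron genes of the ventral midbrain were low in 1 N22 library and not in the other. Slc6a3, the dopamine transporter, counted 265, 238, 230.1 and 194 in the other libraries and 341 and 26.03 in the N22 libraries. Th, which makes the precursor of dopamine, counted 228, 172, 202 and 161 in the other libraries and 273 and 43.8 in the N22 libraries. Slc18a2, the vesicular monoamine transporter, counted 343, 232, 219 and 236 in the other libraries and 255 and 35.5 in the N22 libraries. In each of these genes wild type replicate 3 lay within or above the range of the other libraries, and Top2b-low replicate 3 lay several fold below all of them. Slc6a3 passed the test for a different N22 difference in the 2 genotypes, with 0.44 log2 units in the wild-type and −2.97 in the Top2b-low pair (interaction −3.42, SE 0.26, adjusted p = 0.00375). Of 12 tested list genes 5 were called lower in N22 (median −0.79), 7 without wild type replicate 3 and 1 without Top2b-low replicate 3. The share of all genes called lower was 16.7%. The list's median without Top2b-low replicate 3 was −0.05, so its lower median rests on that library.

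En1, Aldh1a1 and Slc10a4 were the 3 of 12 tested dopaminergic list genes with both N22 libraries below the others. The share of all genes with this order is not given here, so the 3 are described only. En1, a midbrain and hindbrain homeobox gene, counted 51.0, 35.1, 35.7 and 29.1 in the other libraries and 19.9 and 2.96 in the N22 libraries, a difference of −2.06 (SE 0.43, adjusted p = 0.0067). Aldh1a1, the retinaldehyde dehydrogenase of ventral dopamine neurons, counted 2609, 2839, 2343 and 2274 in the other libraries and 1588 and 1287 in the N22 libraries, a difference of −0.81 (SE 0.06, adjusted p = 1.83e-05). Slc10a4, a vesicle protein of monoamine and cholinergic neurons, counted 141, 105, 103 and 104 in the other libraries and 102 and 36.7 in the N22 libraries, with wild type replicate 3 just below the others. Most other midbrain factors gave no call. Gata2, which specifies midbrain GABA neurons, counted 113, 110.3, 72.6 and 124 in the other libraries and 103 and 95.8 in the N22 libraries (adjusted p = 0.881), and Tal1, its partner, counted 87.5, 90.2, 82.4 and 102 in the other libraries and 93.9 and 86.4 in the N22 libraries (adjusted p = 0.99). Barhl2 was the exception among 7 tested tectal and midbrain GABAergic genes, with 152, 117, 134 and 148 in the other libraries and 13.5 and 14.2 in the N22 libraries.

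Hypothalamic genes did not follow the N22 split but another one. Pmch, the melanin-concentrating hormone gene, counted 395, 555, 399.9 and 37.6 in the other libraries and 612 and 1.18 in the N22 libraries. Oxt, the oxytocin gene, counted 197, 190.5, 181 and 9.71 in the other libraries and 339.9 and 2.96 in the N22 libraries. Hcrt, the orexin gene of the lateral hypothalamus, counted 124, 154, 96.0 and 9.71 in the other libraries and 159 and 0.592 in the N22 libraries. The 2 low libraries were Top2b-low replicates 2 and 3, of which only replicate 3 is an N22 library, while the wild-type N22 library held the highest values. The same 2 libraries were the lowest for 8 of 9 tested hypothalamic peptide genes and 12 of 17 tested hypothalamic transcription factor and receptor genes. None of these 26 genes was called in N22 (limma adjusted p under 0.05), and their N22 differences had medians of −0.24 and −0.41. The medians were 0.65 and 0.16 in the wild-type pair, and −1.13 and −1.15 in the Top2b-low pair. Irs4, an insulin receptor substrate of hypothalamic neurons, counted 272, 276, 215 and 72.8 in the other libraries and 286 and 17.7 in the N22 libraries. Otp, a homeobox gene of neurosecretory neurons, counted 77.7, 57.7, 55.4 and 8.50 in the other libraries and 75.4 and 2.37 in the N22 libraries. Pgr, the progesterone receptor, which cortex also expresses, counted 668, 713, 683 and 647 in the other libraries and 660.0 and 760.2 in the N22 libraries and showed no such split. Without Top2b-low replicate 3 the signs of both medians turned, to 0.65 and 0.16.

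Pituitary hormone genes marked out the wild-type N22 library. Gh, the growth hormone gene, counted 68.0, 0, 1314 and 0 in the other libraries and 14652 and 21.3 in the N22 libraries. Prl, the prolactin gene, counted 2.43, 0, 175 and 0 in the other libraries and 3113 and 4.73 in the N22 libraries. Cga, the shared subunit of glycoprotein hormones, counted 0, 10.0, 35.7 and 0 in the other libraries and 452 and 0.592 in the N22 libraries. The same library was the highest for all 5 tested pituitary genes, and Top2b-low replicate 1 came after it. None was called with both N22 libraries, and without Top2b-low replicate 3 limma called 4 of 5 higher, which describes the 1 N22 library left. The second N22 library held little or none of these RNAs, with 0 for Lhb and Fshb, the gonadotropin subunits.

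**Figure D4:**
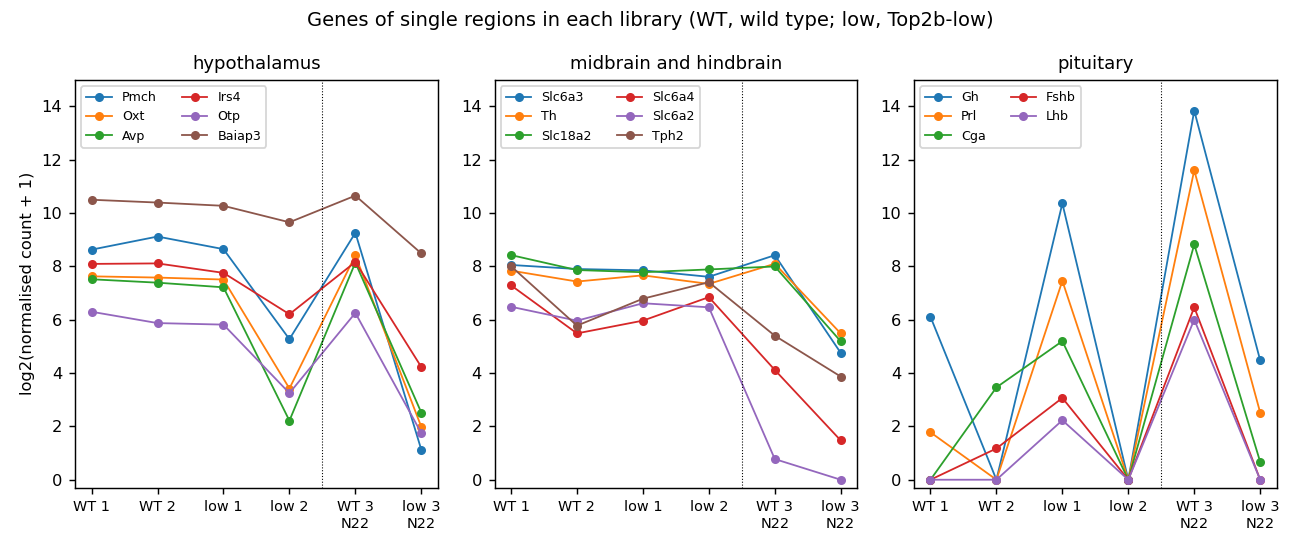
Level of single-region genes in each library as log2(normalised count + 1); the dotted vertical line sets the 2 N22 libraries apart, and lines only join the values of 1 gene. Slc6a2 is low in both N22 libraries, Slc6a3 only in the Top2b-low one, the hypothalamic genes in Top2b-low replicates 2 and 3, and the pituitary genes are highest in the wild-type N22 library.

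Cholinergic neurons of the basal forebrain lay mostly with the dopaminergic pattern. Top2b-low replicate 3 was the lowest library for all 8 listed genes. For the calls below, the share of all genes called lower was 16.7%. Ngfr, the low-affinity nerve growth factor receptor of these neurons, counted 118, 113, 121 and 104 in the other libraries and 105 and 37.9 in the N22 libraries, a difference of −0.84 (SE 0.27, adjusted p = 0.0387) that was −0.14 in the wild-type and −1.54 in the Top2b-low pair. Slc5a7, the choline transporter, which cranial motor neurons share, was low in both N22 libraries, with 315, 325, 273 and 227 in the other libraries and 166 and 138 in the N22 libraries. Chat, the choline acetyltransferase of both neuron classes, counted 66.8, 92.7, 83.7 and 87.4 in the other libraries and 98.9 and 63.3 in the N22 libraries and did not pass (adjusted p = 0.881). Of 8 genes 3 were called lower (median −0.55), 4 without wild type replicate 3 and 1 without Top2b-low replicate 3, where the median was 0.02.

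Thalamic and habenular genes were divided between the directions. Of 14 tested thalamic genes 4 were higher and 3 lower (median 0.14), against 11.3% and 16.7% of all genes. Tnnt1, a troponin made by thalamic relay neurons, counted 163, 134, 149 and 108 in the other libraries and 211 and 240.2 in the N22 libraries, a difference of 0.71 (SE 0.17, adjusted p = 0.0104). Prkcd, the protein kinase C delta of relay nuclei, counted 1719.9, 1632, 1707 and 1595 in the other libraries and 2043 and 1963 in the N22 libraries. Both were above all other libraries in each N22 library. After length and GC normalization the difference of Tnnt1 was 0.43 and did not pass (adjusted p = 0.0567). Slc17a6, the glutamate transporter of thalamus, midbrain and hindbrain, was lower with 2613, 2613, 2422 and 2093 in the other libraries and 2259 and 1564 in the N22 libraries, where wild type replicate 3 lay inside the range of the others. Patj had the largest difference of the list, −1.25, with 1563, 1295, 1361 and 1355 in the other libraries and 687 and 494 in the N22 libraries. Tcf7l2 counted 721, 682, 666 and 681 in the other libraries and 590 and 531 in the N22 libraries. Patj and Tcf7l2 were below all other libraries in each N22 library. Of the 3 lower genes, 1 is listed for no other region. Slc17a6 did not pass after length and GC normalization (−0.27, adjusted p = 0.0528). The thalamic calls fell to 1 higher and 2 lower without wild type replicate 3, and to 0 and 1 without Top2b-low replicate 3. Of 9 habenular genes none was called by limma, and their median of 0.16 turned to −0.03 with the length and GC normalization. Nwd2 and Lrrc55, the most abundant of them, had adjusted p of 0.146 and 0.138.

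Several lists of telencephalic genes were higher in N22, by small amounts. Of 12 genes of telencephalic excitatory neurons 9 were higher and 0 lower, against the 11.3% of all genes called higher, with a median of 0.36 log2 units. Emx1, the homeobox gene of the cortical plate and hippocampus, counted 121, 142, 140.3 and 118 in the other libraries and 201 and 259 in the N22 libraries, a difference of 0.81 (SE 0.14, adjusted p = 0.00313). Nrgn, the neurogranin of forebrain excitatory neurons, counted 10018, 10949, 11979 and 11899 in the other libraries and 16139.5 and 20893 in the N22 libraries, a difference of 0.72 (SE 0.07, adjusted p = 6.21e-05). Neurod6, a factor of pyramidal neurons, counted 847, 867, 927 and 1095 in the other libraries and 1106 and 1533 in the N22 libraries. In all 3 both N22 libraries were above the others, and the Top2b-low one was the higher. Of 5 telencephalic patterning factors 2 were higher, and 0 without Top2b-low replicate 3. The number of excitatory genes called was 5 without wild type replicate 3 and 2 without Top2b-low replicate 3, and after length and GC normalization it was 9.

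Cortical layers, hippocampus and striatum gave the same direction in part of their genes. Their counts stand against 11.3% of all genes called higher and 16.7% lower. Fezf2, the specifying factor of layer 5 projection neurons, counted 281, 349.7, 288 and 307 in the other libraries and 489 and 560.3 in the N22 libraries, a difference of 0.78 (SE 0.11, adjusted p = 0.00103). Rprm, a layer 6 gene, counted 482, 466, 565 and 479.5 in the other libraries and 740.3 and 935 in the N22 libraries. Both were above all other libraries, while Nxph4, a layer 6 neurexophilin, was below them with 229.6, 196, 199 and 197 in the other libraries and 142 and 73.4 in the N22 libraries. Of 14 genes of layers 5 and 6, 4 were higher and 2 lower (median −0.01), and of 8 genes of layers 2 to 4, 3 were higher (median 0.19), and 1 when either N22 library was left out. Of 15 hippocampal genes 5 were higher and 1 lower (median 0.31), and none was called higher when either N22 library was left out. Spink8, a CA1 pyramidal cell gene, led them with 24.3, 31.3, 17.2 and 29.1 in the other libraries and 53.3 and 52.7 in the N22 libraries. Prox1, the dentate granule cell factor, was lower with 951, 935, 898 and 914 in the other libraries and 702 and 739 in N22. After length and GC normalization neither Spink8 (0.71, adjusted p = 0.112) nor Prox1 (−0.15, adjusted p = 0.115) passed.

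Striatal projection neurons and cortical interneurons were also higher in several genes. Among all genes 11.3% were called higher and 16.7% lower. Adora2a, the adenosine receptor of indirect pathway neurons, counted 547, 455, 582 and 606 in the other libraries and 725 and 848 in the N22 libraries, a difference of 0.53 (SE 0.09, adjusted p = 0.00217). Ppp1r1b, the phosphatase regulator DARPP-32, counted 4924, 4682, 5402 and 4446 in the other libraries and 6301 and 6815 in the N22 libraries. Drd1, the dopamine receptor of direct pathway neurons, counted 641, 664, 775 and 729.6 in the other libraries and 649 and 731 in the N22 libraries and did not pass (adjusted p = 0.8288). Of 24 striatal genes 11 were higher and 0 lower (median 0.22), 3 without wild type replicate 3 and 4 without Top2b-low replicate 3. Sst, the somatostatin gene of interneurons, counted 1889, 1639, 1923 and 1599 in the other libraries and 2941 and 3161 in the N22 libraries, a difference of 0.80 (SE 0.09, adjusted p = 0.000198). Htr3a, the serotonin receptor channel of a class of interneurons, counted 68.0, 66.4, 78.8 and 64.3 in the other libraries and 124 and 115 in the N22 libraries. Of 14 interneuron genes 6 were higher and 2 lower (median 0.40), and the 2 lower were Pvalb and Reln, which the cerebellum shares. After length and GC normalization the difference of Sst was 0.40 (adjusted p = 0.000708). Interneuron calls on the higher side numbered 3 without wild type replicate 3 and 3 without Top2b-low replicate 3.

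Of 10 neuroblast genes 3 were higher and 2 lower, against 11.3% and 16.7% of all genes. Their median was 0.12, with −0.14 without wild type replicate 3 and 0.25 without Top2b-low replicate 3. Dcx, the doublecortin of migrating neuroblasts, counted 641, 657, 795 and 733 in the other libraries and 919.6 and 1021 in the N22 libraries and was higher, as were the interneuron factors Dlx1 and Sp9. Sox11, a factor of immature neurons, counted 391, 353, 363 and 327 in the other libraries and 225 and 228 in the N22 libraries and was lower. Gng4 and Stxbp6, the most abundant olfactory bulb genes, had differences of 0.23 and 0.15 and did not pass (adjusted p = 0.1 and 0.098).

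Astrocyte and oligodendrocyte genes were lower in part and higher in none of the listed members before the length and GC normalization, which put 1 oligodendrocyte and 2 precursor genes on the higher side. The counts below stand against 16.7% of all genes called lower. Aqp4, the water channel of astrocyte endfeet, counted 5390.5, 4716, 4499 and 5088 in the other libraries and 2639.9 and 2463 in the N22 libraries, a difference of −0.95 (SE 0.07, adjusted p = 1.97e-05). Sox9, the astrocyte lineage factor, counted 556, 508, 658 and 668 in the other libraries and 324 and 424 in the N22 libraries, and Slc1a3, the glutamate transporter that Bergmann glia express strongly, counted 12866, 12519, 13969 and 13106 in the other libraries and 9411 and 9332 in the N22 libraries. In all 3 both N22 libraries were below the others. Of 14 astrocyte genes 7 were lower (median −0.24), whereas Aldh1l1, a general astrocyte enzyme, counted 1165, 1186, 1340.1 and 1181 in the other libraries and 1232 and 1083 in the N22 libraries and did not pass (adjusted p = 0.544). Agt, the angiotensinogen of astrocytes outside the telencephalon, was lowest in Top2b-low replicate 3, with 1194, 1221, 816 and 862 in the other libraries and 969 and 421 in the N22 libraries, and wild type replicate 3 lay inside the range of the others. It was 1 of 3 such genes called of 5, 5 without wild type replicate 3 and 1 without Top2b-low replicate 3. Ugt8a, which makes the myelin lipid galactocerebroside, counted 2044, 1964, 1666 and 1618 in the other libraries and 1159.9 and 1068 in the N22 libraries, a difference of −0.70 (SE 0.07, adjusted p = 6.64e-05). Trf, the transferrin of oligodendrocytes, counted 9173, 8703, 8707 and 8318 in the other libraries and 5984 and 5287 in the N22 libraries. Of 19 oligodendrocyte genes 7 were lower (median −0.15), 2 without wild type replicate 3 and 5 without Top2b-low replicate 3. Mbp, the myelin basic protein gene, did not pass, with a difference of −0.09 (adjusted p = 0.337). Myt1, a zinc finger factor of oligodendrocyte precursors that neurons also make, was lower with 589, 500.1, 639 and 599.7 in the other libraries and 271 and 276 in the N22 libraries, and 3 of 12 precursor genes were lower in all, 1 when either N22 library was left out.

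Of 18 microglial genes 4 were higher and 0 lower (median 0.17), against 11.3% of all genes called higher, which is about 2 of 18. The count was 1 without wild type replicate 3 and 1 without Top2b-low replicate 3. P2ry13, a purinergic receptor of microglia, counted 152, 143, 175 and 178 in the other libraries and 252 and 261 in the N22 libraries, a difference of 0.67 (SE 0.11, adjusted p = 0.00226). Csf1r, the receptor that microglia need to survive, counted 1455, 1535, 1529.6 and 1612 in the other libraries and 1481 and 1444 in the N22 libraries and did not pass (adjusted p = 0.469). Of 6 perivascular macrophage genes none was called.

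Meningeal fibroblast genes were lower and vessel, choroid plexus and ependymal genes mostly gave no call. Col3a1, a fibrillar collagen, counted 132, 143, 166 and 132 in the other libraries and 74.7 and 63.3 in the N22 libraries, a difference of −1.04 (SE 0.16, adjusted p = 0.00125). Foxc1, a meningeal transcription factor, counted 126, 138, 119 and 134 in the other libraries and 80.4 and 78.1 in the N22 libraries. Both were below all other libraries in each N22 library. Of 14 meningeal genes 8 were lower (median −0.49), 5 without wild type replicate 3 and 4 without Top2b-low replicate 3. Of 14 endothelial genes 4 were lower and 1 higher (median −0.08), and of 11 tested mural cell genes 3 were lower (median −0.24), 1 when either N22 library was left out. The endothelial genes lower were 1 without wild type replicate 3 and 2 without Top2b-low replicate 3. Ttr, the transthyretin of choroid plexus, counted 13827, 11163, 9981 and 11641 in the other libraries and 12708 and 13574 in the N22 libraries and did not pass (adjusted p = 0.208), and 3 of 13 choroid plexus genes were lower, 0 when either N22 library was left out. The counts for endothelial, mural, choroid plexus and oligodendrocyte precursor genes stand against 16.7% of all genes called lower, which is about 2 in a list of their size, and are near it. Of 12 ependymal genes 1 was lower, Hydin, a protein of motile cilia with a long transcript, at 83.8, 99.0, 86.1 and 117 in the other libraries and 69.7 and 45.6 in the N22 libraries. It was not called without Top2b-low replicate 3 (−0.38, adjusted p = 0.393) or after length and GC normalization (adjusted p = 0.103).

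**Figure D5:**
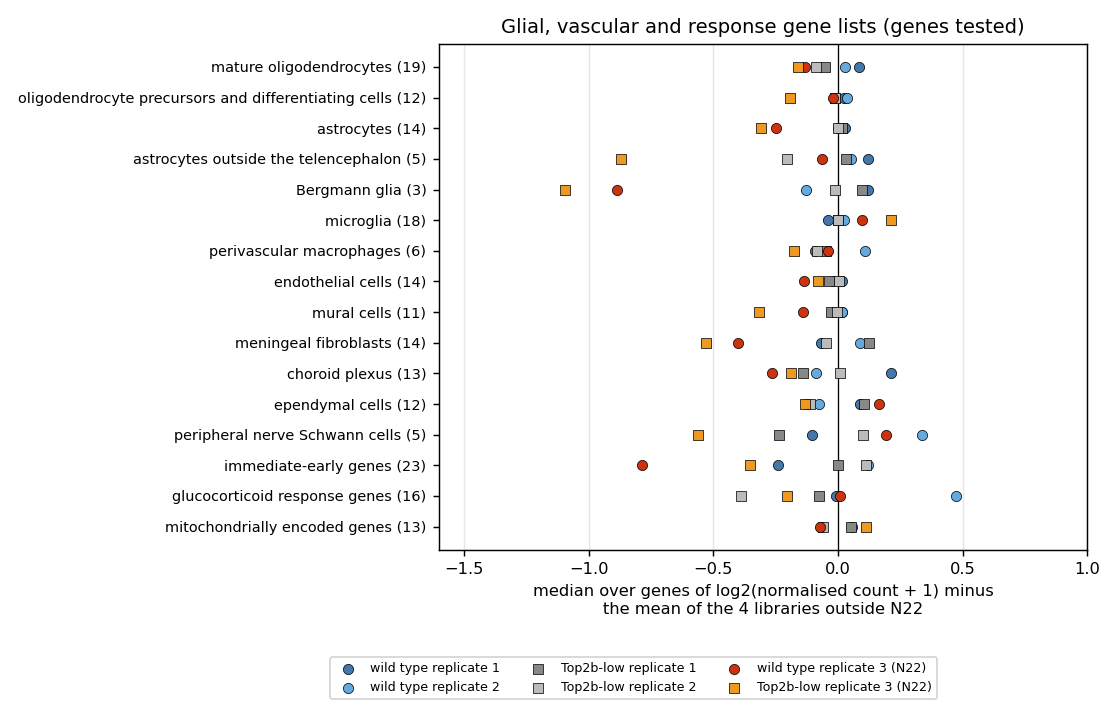
Median difference of glial, vascular and response gene lists from the mean of the 4 libraries outside N22, in log2 units, 1 point per library, with the number of tested genes in parentheses. The N22 points lie left of the others for Bergmann glia, astrocytes, meningeal fibroblasts and immediate-early genes, and right of them for microglia. By less, they also lie left for mature oligodendrocytes, oligodendrocyte precursors, endothelial cells, mural cells and choroid plexus.

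Red blood cell RNA was low in both N22 libraries and high in 2 others. Hbb-bs, an adult beta globin, counted 4448, 5048, 62318 and 13984 in the other libraries and 1674 and 1965 in the N22 libraries. Alas2 counted 99.6, 108, 1857 and 454 in the other libraries and 29.9 and 44.4 in the N22 libraries. Top2b-low replicate 1 held the most, Top2b-low replicate 2 came next, and the N22 libraries lay below wild type replicates 1 and 2. Among all genes 16.7% were called lower. Of 5 erythroid genes 4 were lower (median −2.70), with 4 without wild type replicate 3 and 0 without Top2b-low replicate 3. Hba-a1 went its own way, with 747, 841, 68.9 and 2677 in the other libraries and 568 and 522 in the N22 libraries. It has a near-identical copy, Hba-a2, between which reads can be split, so neither is a measure of its own.

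Immediate-early genes, which neurons switch on within minutes of activity, were lower in N22, with a median of −0.74 in the wild-type and −0.44 in the Top2b-low pair. Fos counted 662, 902, 821 and 943 in the other libraries and 218 and 510.0 in the N22 libraries, a difference of −1.30 (SE 0.20, adjusted p = 0.00141). Arc, a synaptic protein induced by activity, counted 3262, 4288, 3972 and 4349.7 in the other libraries and 957 and 2537 in the N22 libraries, with −1.96 log2 units in the wild-type and −0.71 in the Top2b-low pair. Both N22 libraries were below the others in Fos and Arc. Npas4, a neuron-specific activity factor, instead counted 288, 348, 362 and 414 in the other libraries and 189 and 700.5 in the N22 libraries, the lowest value in one N22 library and the highest in the other. Of 23 genes 13 were lower and 1 higher (median −0.51), against 16.7% and 11.3% of all genes. The lower calls numbered 8 without wild type replicate 3 and 16 without Top2b-low replicate 3. Nptx2, a secreted pentraxin, was the 1 higher, with 809, 763, 806 and 714 in the other libraries and 880.4 and 1064 in the N22 libraries. Whether the time of dissection, handling or region content moves these genes was not tested. Of 16 glucocorticoid response genes 2 were higher and 5 lower (median −0.09), against 11.3% and 16.7% of all genes. Lcn2, the lipocalin of inflamed tissue, led the lower ones, with 20.6, 188, 47.99 and 18.2 in the other libraries and 2.84 and 2.96 in the N22 libraries. Those calls fell to 0 without wild type replicate 3, and to 0 higher and 3 lower without Top2b-low replicate 3.

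Mitochondrially encoded genes moved unequally. mt-Nd6, the complex I subunit read from the light strand, counted 751, 954, 929 and 776 in the other libraries and 98.9 and 296 in the N22 libraries, a difference of −2.30 (SE 0.27, adjusted p = 0.000309). mt-Atp6, an ATP synthase subunit, counted 14188, 9873, 13244 and 9945 in the other libraries and 25542 and 38867 in the N22 libraries, a difference of 1.43 (SE 0.17, adjusted p = 0.000346). mt-Co1, a cytochrome oxidase subunit, counted 400696, 378198, 391106 and 416232 in the other libraries and 385272 and 428254 in the N22 libraries and did not pass (adjusted p = 0.808). Thus of 13 genes of 1 small genome 1 was higher and 3 lower, which is near the 11.3% and 16.7% of all genes. Their median was 0.04, and −0.18 without Top2b-low replicate 3. The mitochondrial share of reads, 4.59% and 5.36% in N22, spanned the 4.87% to 5.17% of the others. Of 494 antisense transcripts 14.98% were called higher and 4.05% lower, against 11.3% and 16.7% of all genes. Whether the counting used strand is not given in the sources used here, so reads of a gene and its antisense partner cannot be told apart.

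The length and GC normalization changed the count of calls in 22 of the 45 lists. In the forebrain, hippocampal calls went from 5 higher and 1 lower to 3 and 0, striatal calls from 11 to 12 higher, interneuron calls from 6 to 7 higher and layer 5 and 6 calls from 4 to 5 higher. Thalamic calls went from 3 to 2 lower, and the olfactory bulb, habenular and hypothalamic factor lists gained 1 higher each. Behind the forebrain, dopaminergic calls went from 5 to 6 lower, cranial motor calls from 1 to 2 and Purkinje cell calls from 13 to 14. Among glia, astrocyte calls went from 7 to 9 lower, oligodendrocyte calls from 7 to 10 lower with 1 higher, and precursor calls from 3 lower to 2 lower and 2 higher. Mural cell calls went from 3 to 1 lower, meningeal calls from 8 to 7, and the 1 endothelial gene called higher was no longer called. Immediate-early calls went from 1 higher and 13 lower to 0 and 14, glucocorticoid response calls from 2 and 5 to 1 and 6, and mitochondrial calls from 3 to 5 lower. Of the small lists, neutrophil genes gained 1 lower and skeletal muscle genes lost their 1 higher.

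The 2 N22 libraries differed from each other beyond what genotype did elsewhere in few genes by test. The interaction of N22 and genotype passed for 4 of 17391 genes in limma (0.023%), with 624 at an unadjusted p under 0.05, while edgeR on the recovered reads called 1 and DESeq2 23. Its residual spread comes only from the 4 libraries outside N22. Besides Slc6a3, Ppp1r17 passed, with −4.82 in the wild-type and −8.04 in the Top2b-low pair (adjusted p = 0.0136). Zfp968, a zinc finger gene with close paralogues between which reads may be split, counted 199, 177, 202 and 125 in the other libraries and 0 and 62.1 in the N22 libraries (adjusted p = 0.00375). The unnamed ENSMUSG00000121777 counted 36.4, 46.4, 94.8 and 99.5 in the other libraries and 112 and 21.9 in the N22 libraries (adjusted p = 0.0495). With 1 library per genotype in N22, genotype and a difference between the 2 N22 dissections cannot be told apart.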

How the data were processed

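Polyadenylated brain RNA of 3 wild-type and 3 Top2b-low mice was measured in 6 libraries. The deposited table holds normalised counts, a signal made by the authors with RSEM on the mm39 build, per the submitters' processing notes. The RSEM version, aligner, annotation and strand setting were not given in the sources used here. All values (100%, within 1e-06 of a whole read) were whole multiples of the smallest value above 0 in their library, so read counts could be recovered from the deposited values. Of 78298 gene identifiers 51498 matched a symbol.

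Genes with a 6-library mean of at least 10 were tested with limma 3.58.1 in R 4.3.3 on log2(normalised count + 1), with an intensity trend, terms for N22 and genotype, 3 residual degrees of freedom, and Benjamini-Hochberg adjusted p under 0.05 over all genes tested. The fit of N22 by genotype had 2 residual degrees of freedom. The fit was also run on simulated counts that held no length trend, which checks the fitting code only and lends the calls no support. edgeR 4.0.16 and DESeq2 1.42.0 on recovered reads, other scalings, filters and pseudocounts, no trend, thinned reads, no genotype term, a replicate block, and leaving out each library were alternatives. Normalization for length and GC content, and protein-coding genes alone, were added after seeing the data. Depth was 16963067 to 35246703 reads, where 1 read is worth 0.592 to 1.25 normalised counts, and exact 95% intervals cover counting error only.

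Named genes were Top2b, the 6 markers, the 15 largest non-overlapping differences in each direction at or above the median level, up to 4 called genes per list and direction (or the 2 most abundant where none was called), and the interaction genes. The 15 in each direction were limited to genes with an official symbol. Other genes named were chosen after their values were seen. Some genes of the lists are not reported here. Members and lists were chosen with earlier results of these data known.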

Additional observations from a re-analysis of the deposited data

Results flagged for a closer look

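Among the 4 libraries outside N22, 1 library stood apart from the other three in 15 of 173 named genes, by Dixon's gap ratio above its 95% critical value, which chance gives in about 1 of 20 groups. Wild type replicate 1 was the high one for Gabra6 at 2348 normalised counts, Nxph4 at 229.6, Slc18a2 at 342.5 and Slc10a4 at 140.9. It was the low one for Siglech at 181.0. Wild type replicate 2 was high for Hoxa5 at 38.85, Ctss at 906.1 and Plin4 at 367.2, and low for Cnpy1 at 1224 and Gpr6 at 102.8. Top2b-low replicate 1 was high for Rprm at 564.8, Gh at 1314, Prl at 174.7 and Hbb-bs at 6.232e+04. Top2b-low replicate 2 was high for Sag at 20.64.

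The N22 difference itself differed between the genotypes by limma's interaction test for 4 genes. Its value, Top2b-low minus wild type in log2 units, was −3.42 for Slc6a3, −3.23 for Ppp1r17, 6.22 for Zfp968 and −3.53 for ENSMUSG00000121777. Each N22 library is the only one of its genotype.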

How the results depend on the processing

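The counts of 1963 genes higher and 2901 lower in N22 stayed within 1.5 times under the other alternatives run, except without the intensity trend (798 and 1383) and when an N22 library was left out. Leaving out each library in turn gave 376 to 1866 higher and 1267 to 2710 lower, the lowest without Top2b-low replicate 3 for genes higher and without wild type replicate 3 for genes lower. Replicate numbers are shared across genotypes, and number 3 is the N22 library of each, so the replicate block gives the same difference with another error: 2148 higher and 3041 lower. The labels tie the numbers to no litter, batch or day. The count of 4 interaction genes was 2 with a pseudocount of 5, 4824 with no filter, 9 with a mean of at least 50, 0 without the trend, 7 with total-count scaling, 9 with quantile normalization, 1 with edgeR, 23 with DESeq2 and 12 after length and GC normalization. Of 158 named genes called, 82 kept the call without Top2b-low replicate 3, 110 without wild type replicate 3, 86 without the trend and 134 after length and GC normalization. Directions turned after length and GC normalization for Top2b (0.0244 log2 units), and, when 1 N22 library was left out, for genes whose value depends on which it was. The pairs of values, without wild type and without Top2b-low replicate 3, were −5.83 and 0.387 for Pmch, −1.48 and 0.207 for Baiap3, 0.193 and −0.0645 for Pgr, −0.702 and 10.8 for Gh, −1.21 and 10.7 for Prl, −0.170 and 0.00813 for F13a1, −2.97 and 0.442 for Slc6a3, and −2.10 and 1.43 for ENSMUSG00000121777, which was 0.0447 with DESeq2. The cause was not tested. Of 45 list medians 34 kept their sign under all alternatives run. Depth limits genes near the floor of 3 reads, 1.77 to 3.76 normalised counts.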
